A study of Mus musculus with 10 samples.

Results

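The transcripts of wild-type pre-cDC2 were compared with those of wild-type pre-cDC1, the committed precursors of the 2 lineages of conventional dendritic cells (cDCs), both sorted from mouse spleen. Of the 10 RNA-seq libraries of the series, the 5 wild-type ones entered: pre-cDC1 replicates 1, 2 and 3, whose titles carry DN, and pre-cDC2 replicates 2 and 3, whose titles carry Ly6C. The other 5 come from CD11c-cre Adam10fl/fl mice and were not used. All 5 wild-type libraries are labelled as spleen of C57BL/6 mice with the genotype WT, and no treatment, allele or age is given. A gene was described where its level was above 0 log2 RPKM (the log2 of the reads on a gene divided by its length and by the size of the library) in at least 2 of the 5 libraries, which held for 12886 of the 52550 genes in the deposited table. The question of the comparison is which genes separate the precursors before they become mature cDC1 and cDC2, and which of the differences are present in each of the 2 pre-cDC2 libraries. The sources used here give neither the surface markers of the sort nor the number of cells, and not whether a library comes from 1 animal or several, so p-values measure only the spread between these libraries.

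As background, cDCs arise from bone marrow progenitors that depend on the cytokine FLT3L and its receptor FLT3, and they commit to a lineage as precursors before they finish differentiating in tissues such as the spleen. cDC1 need the transcription factors IRF8, BATF3 and ID2, take up dead cells and cross-present their antigens to CD8 T cells. cDC2 are a more varied group that uses IRF4, ZEB2, KLF4 and Notch signals and presents antigen mainly to CD4 T cells. Plasmacytoid dendritic cells, which make type I interferon and depend on TCF4, share surface proteins such as Ly6C and Siglec-H with precursors of cDCs.

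The 5 libraries held 9743960, 9868334 and 11052817 recovered reads in pre-cDC1 and 13177686 and 10305294 in pre-cDC2, and the pre-cDC2 libraries stood further apart from each other than the pre-cDC1 libraries did. Across the 12886 genes, which are not independent replicates, r of the log2 values was 0.861 to 0.880 between pre-cDC1 libraries and 0.811 between the pre-cDC2 libraries, with 3925 genes over 2-fold apart in the pre-cDC2 pair and 2056 to 2156 in the pre-cDC1 pairs. Transcripts of other cells marked the difference. The T cell list summed to 20.0 to 36.3 RPKM in pre-cDC1, 183 in pre-cDC2 replicate 2 and 3447 in replicate 3, and all 20 of its tested genes were higher in replicate 3 than in replicate 2. The NK cell list summed to 118.5 to 126.8, 323 and 3077 RPKM in the same order. The stromal and endothelial list ran the other way, at 14.2 to 26.7 RPKM in pre-cDC1, 610 in pre-cDC2 replicate 2 and 57.3 in replicate 3. Reads on 4 Y-linked genes, 5, 22 and 30 in pre-cDC1, were 271 in pre-cDC2 replicate 2 and 1534 in replicate 3, while Xist stood at 5.73, 5.75 and 5.64 against 5.85 and 4.93 log2 RPKM. A difference between the animals of the groups, sex included, cannot be told apart from the difference between the precursors. In bulk RNA, a change in the number of cells of a type and a change in RNA per cell cannot be told apart, and the part of these other cells in the results below was not tested.

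**Figure D1:**
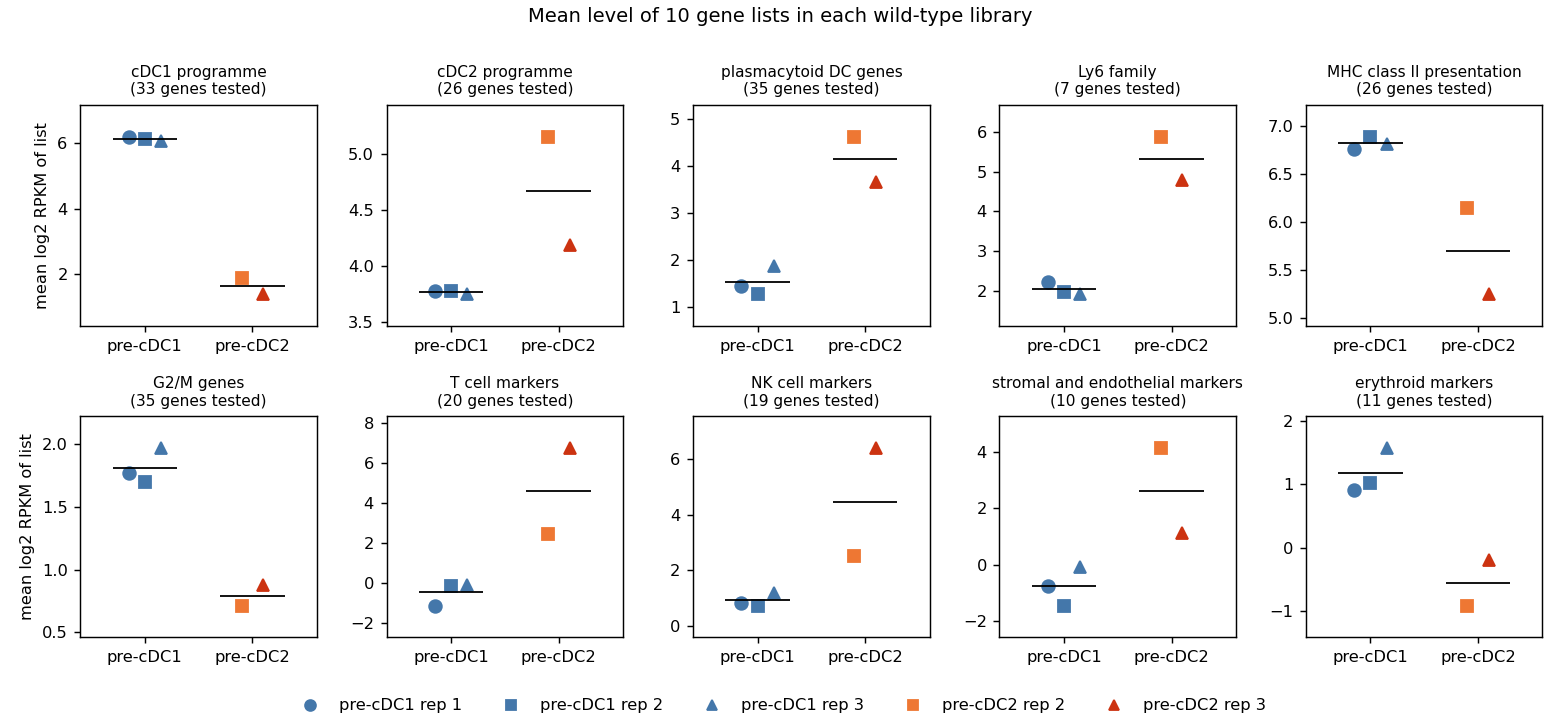
Mean log2 RPKM of the tested genes of 10 lists (y axis of each panel, scaled separately) in the 5 libraries, drawn as points, with lines at the group means. The cDC1 programme lies lower and the plasmacytoid DC genes higher in both pre-cDC2 libraries, while the T cell, NK cell and endothelial lists part the 2 pre-cDC2 libraries from each other.

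limma called 159 genes higher in pre-cDC2 and 434 lower at an adjusted p threshold of 0.05, which is 1.23% and 3.37% of the genes tested, and 2886 genes had an unadjusted p below that value. Differences are given below as pre-cDC2 minus pre-cDC1 in log2 RPKM with the standard error of limma (n = 2 and 3), and "called" refers to this test over all 12886 genes. Of these calls, 26 higher genes had no pre-cDC1 library above 0 log2 RPKM and 121 lower genes no pre-cDC2 library above it. Such genes entered the test through the group where they are high and so had to differ, and their p-values are no separate support. The shares of lists given below count them. Among the genes named below these are Apod, Gimap9, Kdr, Pacsin1 and Tcf7 of the higher and Adam22, Adam23, Bank1, Batf3, Bcl2a1a, Cxcl9, Cyp8b1, E2f2, Ear2, Fndc7, Gcsam, H2-Eb2, Hepacam2, Il12b, Itgae, Lyz1, Mt1, Nlrp1b, Notch4, Sept3, Slc11a1, Snx22, Tbxas1, Timd4, Tlr11, Treml4, Trpm2 and Tspan33 of the lower. The groups did not overlap in any called gene. Without the call, both pre-cDC2 libraries lay above all 3 pre-cDC1 libraries for 2609 genes (20.2%) and below them for 2597 (20.2%). The gap between the groups was at least 1 log2 in 605 (4.7%) and 694 (5.39%) of all genes. The median difference of all tested genes was 0.03. Counts of calls in the lists below are to be set against the 1.23% and 3.37% of all genes, also where these shares are not repeated.

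Part of the differences was seen in both pre-cDC2 libraries and part in 1 of them. Measured from the pre-cDC1 mean, 1213 genes (9.41%) were at least 2-fold higher in each of them and 996 (7.73%) at least 2-fold lower. A further 632 were 2-fold higher in replicate 2 alone and 895 in replicate 3 alone, 509 were 2-fold lower in replicate 2 alone and 1002 in replicate 3 alone, and 120 and 168 were 2-fold apart in opposite directions. Of the called genes, 141 of 159 and 387 of 434 were at least 2-fold apart from the pre-cDC1 mean in each library. When pre-cDC2 was represented by 1 library at a time, 559 genes were called higher and 1256 lower with replicate 3, and 344 and 665 with replicate 2, where the lone library is assumed to vary like the pre-cDC1 group. Of the genes called with both libraries, 86 of the higher and 371 of the lower were also called in each of these fits. The count also rests on each pre-cDC1 library: without replicate 1, 2 or 3 it was 3, 6 or 2 higher and 36, 38 or 29 lower. Calls in the lists described below fell too. The cDC1 programme then had 8, 8 or 7 genes called lower. Each time, the plasmacytoid DC list had 1 gene called higher and the cDC2 programme 0, and MHC class II presentation had 1 called lower.

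**Figure D2:**
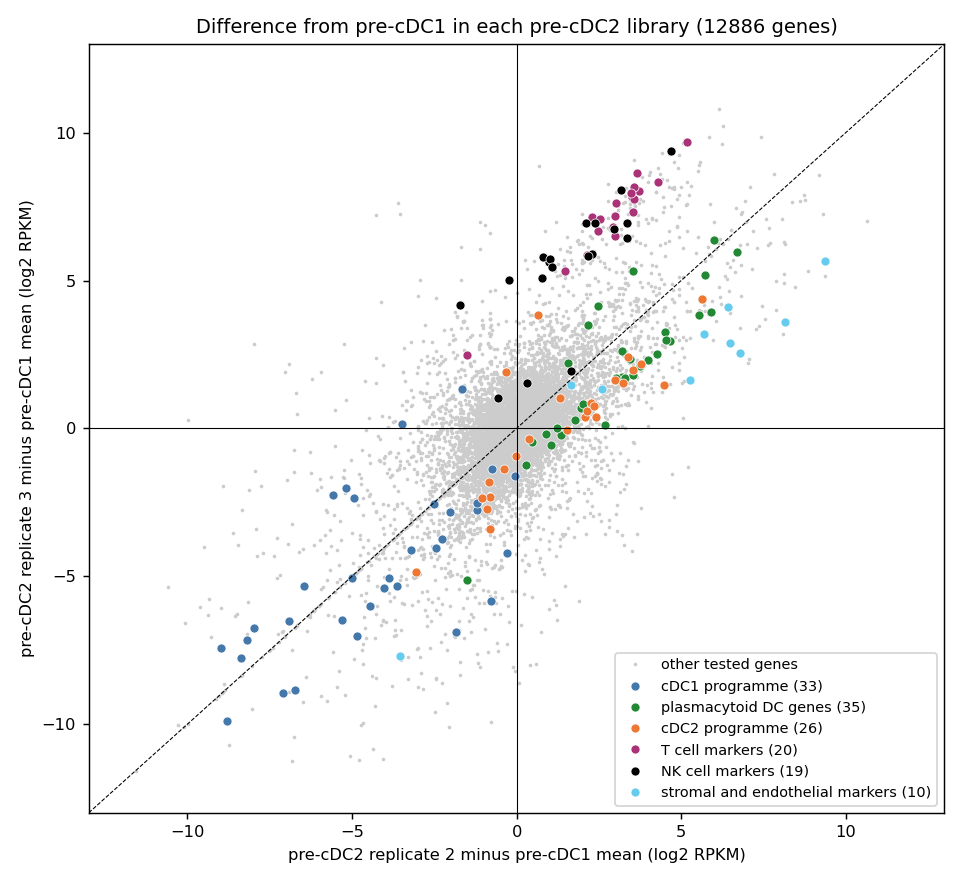
Each point is 1 of the 12886 genes, placed by its difference from the pre-cDC1 mean in pre-cDC2 replicate 2 (x axis, log2 RPKM) and in replicate 3 (y axis, log2 RPKM), with 6 lists coloured and the dashed line marking equal differences. The cDC1 programme lies mostly in the lower left and the plasmacytoid DC genes mostly in the upper right below the dashed line, while T and NK cell markers lie above it and endothelial markers below it.

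The cDC1 programme was lower in pre-cDC2. Of its 33 genes, all of which were tested, 21 were called lower (63.6%, against 3.37% of all genes) and none was called higher. These calls include Batf3, Hepacam2, Itgae, Snx22 and Tlr11, which had no pre-cDC2 library above 0 log2 RPKM. Such members had to differ and are no separate support. The median was -4.37, with -4.03 in pre-cDC2 replicate 2 and -5.07 in replicate 3. Of the 33 genes, 30 lay below every pre-cDC1 library in both, against 20.2% of all genes. Xcr1, the receptor for the chemokine XCL1 that defines cDC1 (ENSMUSG00000060509.4, chromosome 9, 123852315 to 123862029, GRCm38), was at 7.89, 7.68 and 7.58 log2 RPKM in the pre-cDC1 libraries and -0.46 and 0.54 in the pre-cDC2 libraries. The groups were far apart, with a difference of -7.68 ± 0.32 (adjusted p = 0.000628). The adhesion molecule Cadm1 (4.97, 4.75 and 4.89 against 0.41 and -1.15) and the integrin chain Itgae, or CD103 (4.85, 4.83 and 5.06 against -1.56 and -0.41), were low in both pre-cDC2 libraries too, with differences of -5.24 ± 0.47 and -5.9 ± 0.39. Batf3, the transcription factor required for cDC1, was at 4.5, 4.73 and 4.51 log2 RPKM in the pre-cDC1 libraries and -0.26 and -2.44 in the pre-cDC2 libraries, and only 18 and 3 reads remained in pre-cDC2 (-5.93 ± 0.64). Other called members were Wdfy4, which cDC1 need for cross-presentation (7.66, 7.69 and 7.75 against 4.06 and 2.37; -4.49 ± 0.48), the interferon-inducible Ifi205 (6.85, 6.86 and 6.9 against 2.83 and 1.48; -4.71 ± 0.39), and Cd24a (8.06, 8.05 and 7.85 against 5.54 and 3.94; -3.25 ± 0.46).

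Of that list, 12 genes did not pass, and several of these are central to the lineage. Irf8, the factor on which cDC1 depend, was at 9.38, 9.37 and 9.43 log2 RPKM in the pre-cDC1 libraries and 8.18 and 6.89 in the pre-cDC2 libraries. Both pre-cDC2 libraries were lower than all pre-cDC1 libraries and differed from each other (-1.86 ± 0.38, adjusted p = 0.0595). The same held for Clec9a, a receptor for dead cells (7.29, 7.38 and 7.3 against 6.13 and 4.57 log2 RPKM, adjusted p = 0.0705), and for Id2, a repressor of E proteins, whose pre-cDC2 values were 3.02 in replicate 2 and 6.37 in replicate 3 against 8.47 to 8.69 in pre-cDC1. Cd36, a scavenger receptor, was far below pre-cDC1 in replicate 3 and just below it in replicate 2 (7.53, 7.48 and 7.39 against 7.17 and 3.25). Cd8a was the 1 gene of the list above pre-cDC1 by more than 2-fold in a pre-cDC2 library, at 5.74, 5.51 and 5.47 against 3.92 and 6.92. It is also a T cell gene, and replicate 3 is the library with the high T cell list. Whether T cells add to this value was not tested.

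The 12 lower genes with the widest gap between the nearest libraries were Treml4, Tlr11, Snx22, Gcsam, Sept3, Xcr1, Fndc7, Cyp8b1, Hepacam2, Trpm2, Rab7b and Dnase1l3. Treml4, a receptor of the TREM family that binds dying cells (ENSMUSG00000051682.15, chromosome 17, 48264295 to 48275360, GRCm38), led the comparison with 2945, 2646 and 3011 reads in pre-cDC1 and 3 and 3 in pre-cDC2. That is a ratio of 1269-fold (exact 95% interval 582.6 to 3458, counting error only). Tlr11, an endosomal receptor for microbial profilin, was at 6.77, 6.74 and 6.93 log2 RPKM in the pre-cDC1 libraries and -1.99 and -3.09 in the pre-cDC2 libraries (-9.35 ± 0.36). Trpm2, a calcium channel gated by ADP-ribose, was at 4.97, 4.65 and 4.98 against -2.24 and -1.98 log2 RPKM, and Rab7b, a small GTPase of late endosomes, at 7.39, 7.13 and 7.32 against 0.54 and -1.57. Dnase1l3, a secreted DNase, was at 7.31, 7.5 and 6.98 against 0.43 and -0.22 log2 RPKM. In each of these genes the pre-cDC1 libraries lay within 0.6 log2 of each other and both pre-cDC2 libraries held at most 95 reads. Cyp8b1 is the least even of the 12, with 7 reads in pre-cDC2 replicate 2 and none in replicate 3.

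The 12 higher genes with the widest gap were Ly6c2, Cd209d, Apod, Adora2a, Atp1b1, F2r, Acp5, Stat4, Ly6i, Siglech, Tnfaip8l1 and Tmem71. Ly6c2 encodes the Ly6C antigen named in the sample titles (ENSMUSG00000022584.14, chromosome 15, 75108158 to 75111970, GRCm38) and was at 2.7, 3.8 and 3.22 log2 RPKM in the pre-cDC1 libraries and 9.22 and 9.62 in the pre-cDC2 libraries. It had the widest gap of the 12 higher genes, 5.43 between the nearest libraries, with a difference of means of 6.18 ± 0.34 (adjusted p = 0.00152), and both pre-cDC2 libraries were alike. The titles name the pre-cDC2 group by this antigen, so the difference may be fixed by the grouping and its p-value is no separate support. Cd209d, a C-type lectin of the DC-SIGN family, was at 1.78, 1.78 and 1.69 log2 RPKM in the pre-cDC1 libraries and 7.37 and 6.13 in the pre-cDC2 libraries (5.0 ± 0.37, adjusted p = 0.00379). Adora2a, a receptor for adenosine, was at 1.67, 1.72 and 2.21 against 5.87 and 5.7 log2 RPKM and Acp5, tartrate-resistant acid phosphatase, at 3.14, 2.65 and 3.29 against 6.25 and 6.55; in both genes the pre-cDC2 libraries lay within 0.4 log2 of each other. Atp1b1, a subunit of the sodium pump, was at 1.46, 1.0 and 1.65 against 5.87 and 4.65 and the lipocalin Apod at -1.49, -0.6 and -1.1 against 5.14 and 3.15 log2 RPKM. These values and those of Siglech and Ly6i were higher in pre-cDC2 replicate 2, the library with the high endothelial list, than in replicate 3. Stat4, the signal transducer of the interleukin-12 receptor, was at 0.38, -0.25 and 0.13 against 3.12 and 5.37 and F2r, a thrombin receptor, at 1.01, 0.2 and -0.68 against 3.97 and 5.71 log2 RPKM. Both were higher in replicate 3, the library with the high T and NK cell lists, and F2r was not called with replicate 2 alone (adjusted p = 0.0859). Nor was Tmem71 (adjusted p = 0.0598), and Tnfaip8l1 was called with neither library alone (adjusted p = 0.0839 with replicate 3 and 0.0967 with replicate 2).

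**Figure D3:**
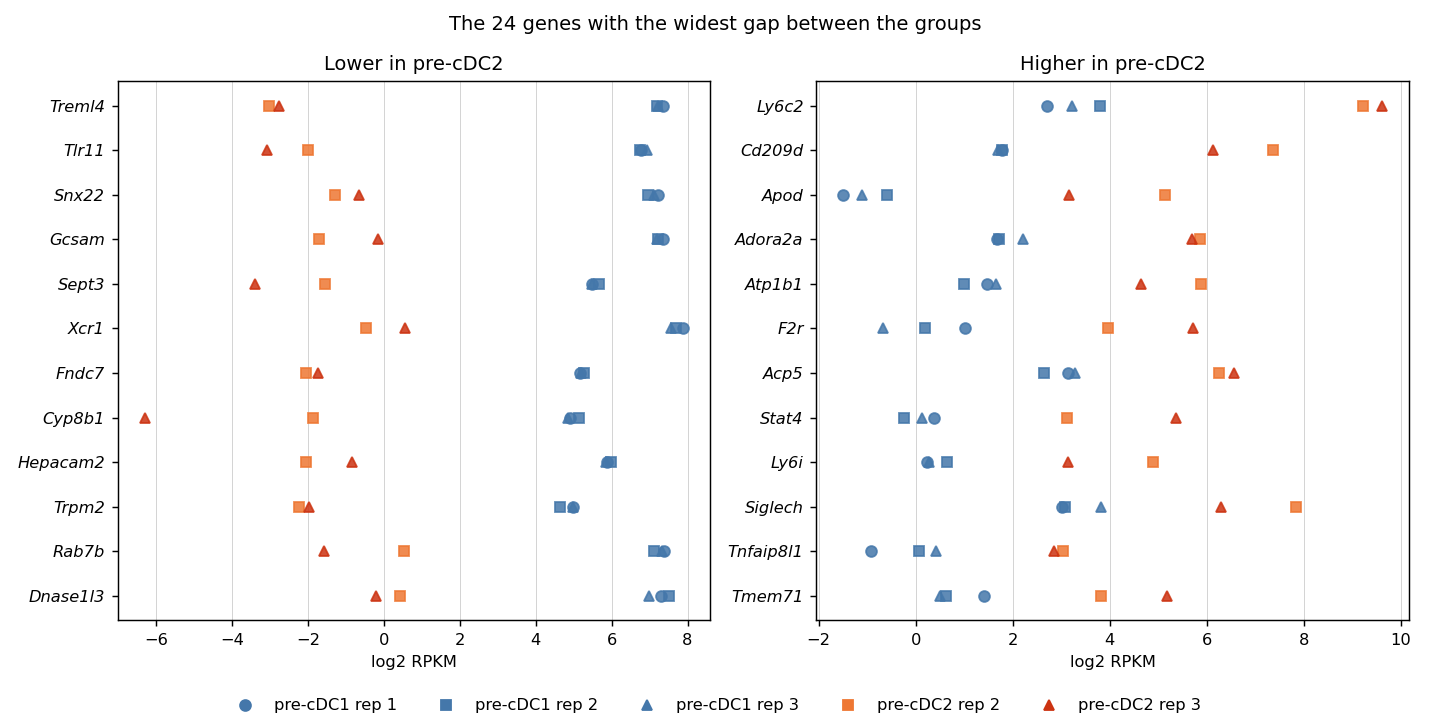
Log2 RPKM (x axis) of the 12 lower and 12 higher called genes with the widest gap between the groups, with 1 symbol per library. All 3 pre-cDC1 symbols lie on 1 side of both pre-cDC2 symbols in every row, and Ly6c2 and Treml4 show the widest gaps.

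Upstream sequence of 4 of these genes is shown to let the promoters of members that move in opposite directions be read side by side. Each is the 250 bases before the RefSeq start site in GRCm38.p6, given 5′ to 3′ in the direction of the gene. Capitals mark the RUNX core TGTGGT, here in its reverse complement, in Ly6c2 at chr15:75111972-75112221 (minus strand) and Siglech at chr7:55767934-55768183 (plus strand), the E-box CACCTG in Siglech, and the interferon-stimulated response element core, a pair of GAAA cores with 2 free bases between them, in Tlr11 at chr14:50357664-50357913 (plus strand). Xcr1, at chr9:123862030-123862279 (minus strand), holds none of the motifs searched.
Ly6c2: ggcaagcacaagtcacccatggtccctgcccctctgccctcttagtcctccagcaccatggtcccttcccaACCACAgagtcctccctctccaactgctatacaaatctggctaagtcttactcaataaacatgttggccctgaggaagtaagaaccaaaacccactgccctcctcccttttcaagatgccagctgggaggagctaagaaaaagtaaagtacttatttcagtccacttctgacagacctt
Siglech: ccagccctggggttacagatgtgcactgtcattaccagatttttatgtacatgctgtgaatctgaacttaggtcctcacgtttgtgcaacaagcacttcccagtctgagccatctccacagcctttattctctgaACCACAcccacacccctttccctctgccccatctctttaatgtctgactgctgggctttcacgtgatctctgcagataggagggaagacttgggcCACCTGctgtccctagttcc
Tlr11: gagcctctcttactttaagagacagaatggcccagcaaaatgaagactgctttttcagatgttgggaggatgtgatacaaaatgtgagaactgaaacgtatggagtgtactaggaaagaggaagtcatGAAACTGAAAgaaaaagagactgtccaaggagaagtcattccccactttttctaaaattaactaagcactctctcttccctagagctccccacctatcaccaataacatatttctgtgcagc
Xcr1: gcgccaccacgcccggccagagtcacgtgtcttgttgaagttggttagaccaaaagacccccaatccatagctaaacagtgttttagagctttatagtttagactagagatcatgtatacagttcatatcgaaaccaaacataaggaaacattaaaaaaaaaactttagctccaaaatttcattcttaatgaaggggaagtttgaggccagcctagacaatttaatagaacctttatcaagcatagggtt
Counted from the start site, the first base of the match lay at -179 in Ly6c2, at -115 (RUNX) and -20 (E-box) in Siglech and at -122 in Tlr11. Both strands were searched, and the further motifs were the ETS-IRF composite element, in which GGAA replaces the first core of the interferon element, and the 2 AP-1-IRF composite elements, which share a core with it. RefSeq promoters were found for 9 of the 12 higher and 8 of the 12 lower genes. The RUNX core was in 5 of the 13 promoters of the higher genes, which come from 4 genes since 2 overlapping Ly6c2 promoters hold the same site, and in 0 of the 9 of the lower genes. It was in 14% of all 32851 promoters and in 11.3% of the 10614 promoters of tested genes. Over all called genes the shares were close to that background, at 14.4% of 139 promoters of called higher genes and 10% of 400 of called lower genes. The interferon element was in 2.98% of all promoters and the E-box in 17.2%. A match describes letters and is not a binding site.

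The cDC2 programme was split. Of 34 genes 26 were tested, 4 were called higher (15.4%, against 1.23% of all genes) and 1 lower, and the median was 1.29, with 1.80 in replicate 2 and 0.67 in replicate 3. The called higher genes were Cd209d, the surface protein Cd7 (5.38, 6.01 and 5.75 against 9.1 and 8.12 log2 RPKM), the galactose-binding lectin Clec10a (2.36, 1.92 and 2.33 against 5.18 and 3.85) and the transcription factor Zeb2 (0.71, 0.78 and 1.26 against 4.46 and 2.89). Zeb2 was above pre-cDC1 in both libraries (2.76 ± 0.52, adjusted p = 0.0493), and with replicate 3 alone it was not called (adjusted p = 0.0576). The lysozyme gene Lyz2, which myeloid cells of several kinds express, was lower (10.66, 10.8 and 10.62 against 7.65 and 5.82; -3.96 ± 0.52). Irf4, Sirpa and Cd209a, also defining markers of cDC2, did not pass. Irf4 was at 2.38, 2.6 and 2.73 log2 RPKM in the pre-cDC1 libraries and 5.81 and 4.11 in the pre-cDC2 libraries, with no overlap (2.39 ± 0.5, adjusted p = 0.0621). Sirpa, the inhibitory receptor by which mature cDC2 are sorted, was at 2.52, 3.18 and 3.69 against 5.47 and 3.89 log2 RPKM, so that replicate 3 lay only just above the highest pre-cDC1 library. Cd209a, the DC-SIGN homologue, was at 7.08, 7.14 and 6.98 against 9.13 and 7.44 and Klf4 at 4.78, 4.65 and 4.96 against 6.33 and 4.73 log2 RPKM, and in both genes replicate 2 was well above pre-cDC1 and replicate 3 near it. Without replicate 2 the Klf4 difference was -0.06. Ccr2, Notch2 and Csf1r were not called.

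Of 36 tested transcription factors of the DC lineages, 4 were called higher (11.1%, against 1.23% of all genes) and 1, Batf3, lower (2.78%, against 3.37%). Runx2, which plasmacytoid DCs use for their exit from bone marrow, was at 2.71, 2.74 and 2.62 log2 RPKM in the pre-cDC1 libraries and 6.14 and 5.03 in the pre-cDC2 libraries (2.9 ± 0.34, adjusted p = 0.015). Spib, an ETS factor of plasmacytoid DCs and B cells, was at 3.98, 4.52 and 4.45 against 7.33 and 6.03 log2 RPKM (2.36 ± 0.41), and Id3, an inhibitor of E proteins, at 1.93, 2.69 and 1.21 against 4.94 and 4.17 (2.62 ± 0.49). Runx2 and Spib were called with either pre-cDC2 library alone and Id3 with neither (adjusted p = 0.125 with replicate 3 and 0.0935 with replicate 2). When pre-cDC1 replicate 1, 2 or 3 was left out instead, no gene of this list was called, Runx2 and Spib included. Tcf4, the E protein that specifies plasmacytoid DCs, was at 1.82, 2.02 and 2.22 log2 RPKM in the pre-cDC1 libraries and 5.32 and 3.72 in the pre-cDC2 libraries and just missed the threshold (adjusted p = 0.0533). Zbtb46, the factor that marks cDCs and their precursors, was at 5.49, 5.64 and 5.64 against 4.99 and 3.78 log2 RPKM and was not called. The ETS factor Spi1, or PU.1, was at 7.46, 7.55 and 7.48 against 7.68 and 5.99, with replicate 2 just above the pre-cDC1 range and replicate 3 below it. The list as a whole had a median of 0.37, against 0.03 for all genes.

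**Figure D4:**
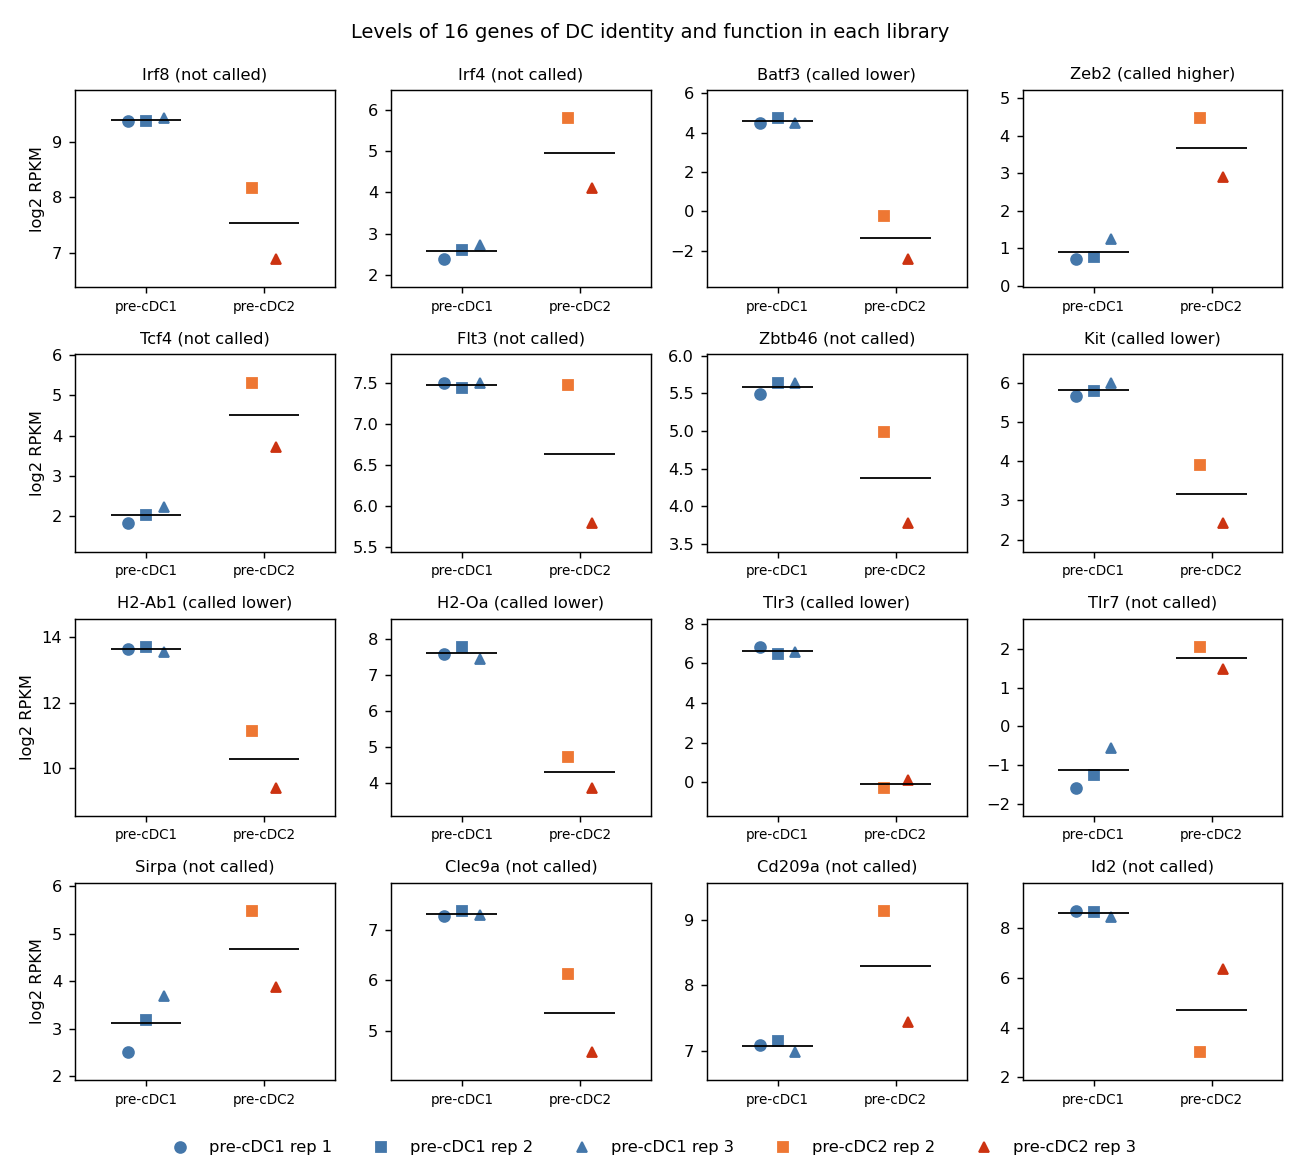
Log2 RPKM (y axis, scaled per panel) of 16 genes of DC identity and function for the 5 libraries, drawn as points, with lines at the group means and limma's call in the title. Batf3, Kit, H2-Ab1, H2-Oa and Tlr3 were called lower and Zeb2 higher, while Flt3 and Id2 part the 2 pre-cDC2 libraries.

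Genes associated with plasmacytoid DCs were called higher more often than tested genes as a whole. Whether plasmacytoid DCs present in the pre-cDC2 libraries add to the values below was not tested. Of 36 genes 35 were tested, 12 were called higher (34.3%, against 1.23% of all genes) and none lower, and 26 of 35 lay above every pre-cDC1 library in both pre-cDC2 libraries, against 20.2% of all genes. The median was 2.83 (2.66 with the 1 gene that had no read in pre-cDC1 at its bound), with 3.19 in replicate 2 and 2.22 in replicate 3, and the summed level was 395 to 463 RPKM in pre-cDC1, 2982 in replicate 2 and 1972 in replicate 3. Siglech, the Siglec-H receptor of plasmacytoid DCs (ENSMUSG00000051504.18, chromosome 7, 55768178 to 55778925, GRCm38), was at 3.03, 3.07 and 3.81 log2 RPKM in the pre-cDC1 libraries and 7.83 and 6.29 in the pre-cDC2 libraries (3.76 ± 0.5, adjusted p = 0.0199). Bst2, the antigen of the antibody PDCA-1, was at 5.25, 5.63 and 5.51 against 8.6 and 7.15 log2 RPKM, Lag3, an inhibitory receptor for MHC class II, at 3.15, 3.76 and 4.24 against 7.98 and 6.24 and the adaptor Blnk at -0.07, -0.78 and 0.48 against 4.55 and 2.83. Pacsin1, an adaptor used in plasmacytoid DCs for interferon production, had 19, 11 and 7 reads in pre-cDC1 and 895 and 505 in pre-cDC2. With replicate 3 alone, Lag3 (adjusted p = 0.0533) and Blnk (adjusted p = 0.0757) were not called. Each of these 5 genes was higher in replicate 2 than in replicate 3, and 29 of the 35 tested genes were. Ly6d, a marker used for plasmacytoid DC progenitors, was at 2.73, 2.94 and 2.99 against 4.84 and 3.58 log2 RPKM and was not called, nor was Tlr7 (-1.58, -1.26 and -0.56 against 2.06 and 1.47). The list shares Ly6c2, Cd209d, Runx2 and Spib, among others, with lists described elsewhere here. Ly6c2, which encodes the antigen in the titles, is counted among the calls of each of its lists.

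Most Ly6 genes were too low to test. Of 19 genes 7 were tested, 3 were called higher (42.9%, against 1.23% of all genes) and none lower, and 6 of 7 lay above every pre-cDC1 library in both, against 20.2%. Besides Ly6c2 these were Ly6a, or Sca-1, a marker of stem cells and activated lymphocytes (3.75, 3.45 and 3.15 against 6.77 and 6.06 log2 RPKM; 2.96 ± 0.29), and Ly6i (0.24, 0.65 and 0.28 against 4.9 and 3.14). Ly6c1, a near copy of Ly6c2 that endothelium and T cells also express, was at 9, 0 and 1 reads in pre-cDC1 and 565 and 61 in pre-cDC2, and it was not called (adjusted p = 0.104). How the authors' counting shared reads between such copies is not given, so the split between Ly6c1, Ly6c2 and Ly6i is uncertain.

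Of 32 tested genes common to cDCs and their precursors, 2 were called higher (6.25%, against 1.23% of all genes), Runx2 among them. The 4 called lower were Btla, Adam23, Kit and Fgl2 (12.5%, against 3.37%). The median was -0.66, with -0.19 in replicate 2 and -1.36 in replicate 3. Kit, the receptor for stem cell factor that early precursors carry, was at 5.66, 5.8 and 6.01 log2 RPKM in the pre-cDC1 libraries and 3.91 and 2.42 in the pre-cDC2 libraries (-2.66 ± 0.44, adjusted p = 0.0372). Btla, an inhibitory receptor of the CD28 family, was at 8.53, 8.31 and 8.2 against 5.99 and 5.1 log2 RPKM (-2.8 ± 0.29). Flt3 was at 7.49, 7.43 and 7.5 log2 RPKM in the pre-cDC1 libraries and 7.47 and 5.79 in the pre-cDC2 libraries, so replicate 2 lay within the pre-cDC1 range and replicate 3 below it (-0.84 ± 0.48, adjusted p = 0.367). Itgax, or CD11c, was at 6.57, 6.44 and 6.4 against 6.46 and 5.96 log2 RPKM and Csf2rb, a shared chain of growth factor receptors, at 5.71, 5.92 and 5.86 against 6.26 and 4.46. Neither was called, and the Csf2rb difference was 0.43 without replicate 3.

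Of 37 cytokine and growth factor receptors tested, 3 were called higher (8.1%, against 1.23% of all genes) and 2 lower (5.4%, against 3.37%). Il2rg, the chain shared by receptors for interleukins 2, 7 and 15, was at 5.28, 5.17 and 5.6 log2 RPKM in the pre-cDC1 libraries and 7.36 and 7.97 in the pre-cDC2 libraries (2.32 ± 0.24, adjusted p = 0.0112), and replicate 3, with the high T and NK cell lists, was the higher of the pair. Lifr, a receptor for leukaemia inhibitory factor, was at 2.6, 2.38 and 3.11 against 6.69 and 4.99 log2 RPKM (3.14 ± 0.53) and Il17ra at 4.21, 4.45 and 4.54 against 5.78 and 5.39 (1.18 ± 0.2). Acvrl1, a receptor for bone morphogenetic proteins, was lower along with Kit (5.71, 5.71 and 5.89 against 4.12 and 2.56; -2.43 ± 0.45). Il7r was at 0.89, 2.4 and 0.65 against 4.32 and 7.84 and Il2rb at 2.29, 2.53 and 2.11 against 4.41 and 9.27 log2 RPKM. These are also T and NK cell genes, were not called, and had the larger difference in replicate 3.

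Of 20 chemokine and migration receptors tested, Gpr183 was called higher and Xcr1, Gpr35 and Ccrl2 lower, Ccrl2 not with replicate 2 alone (adjusted p = 0.105). Gpr183, or EBI2, an oxysterol receptor that positions cDC2 in the spleen, was at 5.12, 5.55 and 5.43 log2 RPKM in the pre-cDC1 libraries and 6.71 and 6.81 in the pre-cDC2 libraries (1.39 ± 0.18, adjusted p = 0.0191). With replicate 2 alone it was at adjusted p = 0.0504. Ccr2, the receptor that monocytes use to leave bone marrow, was at 7.36, 7.24 and 7.36 against 7.31 and 6.39 log2 RPKM, high in all 5 libraries and not called. Cxcr3 parted the pre-cDC2 libraries (7.08, 7.07 and 7.04 against 3.36 and 7.3), as did Ccr7, the receptor for lymph node homing (1.18, 1.22 and 2.89 against 3.67 and 8.01), which T cells also express. Cx3cr1, the fractalkine receptor, was above pre-cDC1 in both (4.0, 4.69 and 4.54 against 6.66 and 5.27) and was not called. Among 32 tested integrin and adhesion genes, 3 were called higher, with Itgad (0.99, 1.25 and 1.08 against 3.67 and 3.14) and Itgb3 (0.23, 1.31 and 1.03 against 3.23 and 3.74) among them, and Itgae, Cadm1 and Itgb7 (9.11, 9.15 and 9.17 against 8.25 and 8.36) lower. Itgb3 was called with neither pre-cDC2 library alone (adjusted p = 0.0547 with replicate 3 and 0.107 with replicate 2).

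Toll-like receptors called in this comparison were all lower in pre-cDC2. Of 30 tested genes of the pathway 4 were called lower (13.3%, against 3.37%) and none higher, and the median was -0.51, with -0.06 in replicate 2 and -0.62 in replicate 3. Tlr3, the receptor for double-stranded RNA, was at 6.84, 6.46 and 6.6 log2 RPKM in the pre-cDC1 libraries and -0.27 and 0.1 in the pre-cDC2 libraries (-6.72 ± 0.21, adjusted p = 0.000326), and Tlr13, which recognises bacterial ribosomal RNA, at 5.64, 5.68 and 5.57 against 1.68 and -0.91 log2 RPKM (-5.25 ± 0.72). With Tlr11 these sit in endosomes, while Cd180 (4.44, 4.47 and 4.5 against 3.07 and 2.05; -1.91 ± 0.32) is a surface relative. Tlr12, the partner of Tlr11, was below pre-cDC1 in both libraries (5.03, 5.15 and 4.97 against 3.55 and 1.98; adjusted p = 0.0558), and Tlr7, a receptor for single-stranded RNA, was above it in both (-1.58, -1.26 and -0.56 against 2.06 and 1.47; adjusted p = 0.0635), neither called. Among 29 other sensors, Nlrp1b, an inflammasome sensor, was lower (2.64, 2.24 and 2.78 against -1.51 and -0.8; -3.71 ± 0.43) and the interferon-inducible Ifi203 higher (4.71, 4.35 and 4.64 against 5.78 and 5.77; 1.21 ± 0.17). Of 29 lectins tested, Cd209d, Siglech and Clec10a were higher and Cd22, a Siglec best known from B cells, lower (3.03, 2.95 and 3.19 against 0.86 and 1.46; -1.9 ± 0.29).

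Of 26 tested genes of MHC class II presentation 6 were called lower (23.1%, against 3.37%) and none higher, and 10 had a higher mean in pre-cDC2. The median was -0.55, with -0.49 in replicate 2 and -0.82 in replicate 3. With replicate 2 alone 7 were called higher and 11 lower, and with replicate 3 alone 1 and 15. H2-Ab1, the beta chain of I-A and among the most abundant transcripts of pre-cDC1, was at 13.65, 13.71 and 13.55 log2 RPKM in the pre-cDC1 libraries and 11.14 and 9.41 in the pre-cDC2 libraries (-3.36 ± 0.55, adjusted p = 0.0372). H2-Aa was at 12.67, 12.84 and 12.56 against 10.69 and 9.02 log2 RPKM and H2-Eb1 at 13.18, 13.29 and 13.05 against 10.57 and 8.84, and in all 3 chains replicate 3 was the lower of the pair. The non-classical chains H2-Ob (7.98, 7.83 and 7.87 against 4.45 and 4.06; -3.64 ± 0.17) and H2-Oa (7.59, 7.79 and 7.44 against 4.73 and 3.88; -3.3 ± 0.28), which form the H2-O inhibitor of peptide loading, were called lower too, with the 2 pre-cDC2 libraries within 0.9 log2 of each other. H2-Eb2 had 90, 128 and 154 reads in pre-cDC1 and none in pre-cDC2. With 3 reads in each library as the limit of a count of 0, it was at least 53.4-fold lower. Ciita, the master activator of class II genes (7.57, 7.66 and 7.72 against 6.11 and 4.45; adjusted p = 0.0554), and the invariant chain Cd74 (14.45, 14.5 and 14.43 against 12.71 and 11.12; adjusted p = 0.0705) lay below pre-cDC1 in both libraries and were not called. The cathepsins Ctss (9.58, 9.53 and 9.53 against 10.44 and 9.0) and Ctsl (0.81, 1.39 and 1.38 against 4.52 and 2.92), proteases of the class II pathway, were not called.

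Class I and cross-presentation genes included 7 called lower (22.6%, against 3.37% of all genes) and 2 higher (6.45%, against 1.23%) of 31 tested. The median was -0.17, with -0.19 in replicate 2 and -0.08 in replicate 3. The peptide pump subunits Tap1 (7.4, 7.43 and 7.53 against 6.41 and 6.25; -1.12 ± 0.14) and Tap2 (6.53, 6.54 and 6.63 against 5.22 and 5.72; -1.1 ± 0.19) and the immunoproteasome subunits Psmb9 (7.06, 7.16 and 6.82 against 5.15 and 5.14; -1.86 ± 0.16) and Psmb8 (7.54, 7.79 and 7.46 against 6.73 and 6.64; -0.91 ± 0.16; adjusted p = 0.0691 with replicate 2 alone) were lower, with the 2 pre-cDC2 libraries within 0.6 log2 of each other. The disulphide isomerase Pdia3 (9.04, 8.93 and 9.1 against 8.02 and 7.63; -1.2 ± 0.19) and the lipid-presenting Cd1d1 (4.4, 4.26 and 4.46 against 2.24 and 3.09; -1.71 ± 0.29) were lower too. Cybb, the catalytic chain of the phagocyte NADPH oxidase (5.48, 5.64 and 5.83 against 8.73 and 7.23; 2.33 ± 0.44), and the GTPase Rab27a (2.9, 3.5 and 3.46 against 4.71 and 5.01; 1.57 ± 0.25) were higher, the latter not with replicate 2 alone (adjusted p = 0.0945). The heavy chain H2-K1 (10.52, 10.5 and 10.48 against 10.74 and 11.32) and the light chain B2m (10.86, 11.1 and 10.59 against 10.87 and 11.43) were not called.

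Costimulatory and inhibitory receptors included 3 genes called lower. Havcr2, or TIM-3, was at 7.23, 7.34 and 7.16 log2 RPKM in the pre-cDC1 libraries and 0.95 and 0.87 in the pre-cDC2 libraries (-6.33 ± 0.15, adjusted p = 0.000189). Cd86, a ligand of CD28, was at 6.72, 6.57 and 6.43 log2 RPKM in the pre-cDC1 libraries and 2.4 and 2.16 in the pre-cDC2 libraries (-4.29 ± 0.17, adjusted p = 0.000552). In both genes the pre-cDC2 libraries differed from each other by less than 0.3 log2. Of 24 genes tested, Btla was also lower and Lag3 higher, and Cd83, a maturation marker (7.72, 7.61 and 7.85 against 6.3 and 3.96), was not called. Of the 26 tested genes of phagocytosis, Treml4, Dnase1l3 and the phosphatidylserine receptor Timd4 were lower. Timd4 had 116, 126 and 45 reads in pre-cDC1 against 0 and 1 in pre-cDC2, a ratio of 254-fold (exact 95% interval 45.2 to 10060). Itgb3 and Pros1, a ligand of TAM receptors (1.56, 1.22 and 2.49 against 5.42 and 4.01; 2.96 ± 0.56), were higher, and Pros1 was called with neither pre-cDC2 library alone (adjusted p = 0.104 with replicate 3 and 0.0545 with replicate 2).

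Lysosomal genes changed in both directions. Of 39 tested, 8 were called lower (20.5%, against 3.37%) and 3 higher, with a median of 0.62 in replicate 2 and -0.34 in replicate 3. Ppt1, palmitoyl-protein thioesterase, was at 10.6, 10.42 and 10.47 log2 RPKM in the pre-cDC1 libraries and 5.49 and 5.44 in the pre-cDC2 libraries (-5.03 ± 0.16, adjusted p = 0.000326), and the 2 pre-cDC2 libraries lay within 0.1 log2 of each other. Gusb, beta-glucuronidase (6.92, 6.8 and 7.04 against 4.31 and 4.03), the saposin precursor Psap (12.77, 12.71 and 12.77 against 11.01 and 9.8) and the cathepsin inhibitor Cst3 (11.85, 12.01 and 11.67 against 8.95 and 7.55) were lower as well. Higher were the sialomucin Cd164 (5.37, 5.3 and 5.44 against 7.26 and 7.23; 1.87 ± 0.13), the peptidase Tpp1 (2.96, 3.07 and 2.95 against 4.78 and 4.27; 1.53 ± 0.22) and cathepsin A, Ctsa (5.68, 5.54 and 5.6 against 7.94 and 6.81; 1.77 ± 0.34). Among secretory granule genes, Lyz1 (5.46, 5.81 and 5.43 against -0.18 and -0.76) was lower with Lyz2, with which it may share reads, and the galectin Lgals1 was higher (4.54, 4.41 and 4.8 against 7.22 and 6.81; 2.43 ± 0.2).

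Secreted mediators were mostly lower where called. Of 25 tested chemokines and cytokines 5 were called lower (20%, against 3.37% of all genes) and 1 higher (4%, against 1.23%). Over the whole list 13 genes had a higher mean and 12 a lower one, and the median was 0.28. Cxcl9, a chemokine for CXCR3-bearing T cells, was at 4.43, 4.36 and 3.98 log2 RPKM in the pre-cDC1 libraries and -0.36 and -1.57 in the pre-cDC2 libraries (-5.22 ± 0.43). Il15 was at 3.13, 3.09 and 3.45 against -0.03 and 0.36 log2 RPKM (-3.06 ± 0.3), and the scavenger chemokine Cxcl16 at 6.12, 5.92 and 6.02 against 3.01 and 0.19 (-4.42 ± 0.78). Ebi3, a subunit of interleukin 27, was at 5.34, 5.45 and 5.36 against 3.34 and 2.3 (-2.56 ± 0.32). Il12b, the p40 chain of interleukins 12 and 23, had 41, 23 and 29 reads in pre-cDC1 and none in pre-cDC2, which on the same limit is at least 13.3-fold lower. Ccl4, an inflammatory chemokine, was higher (6.39, 6.64 and 6.51 against 8.04 and 7.57; 1.29 ± 0.2). Flt3l, the ligand of Flt3, was at -0.02, 0.38 and -0.08 against 1.29 and 2.42 log2 RPKM, above pre-cDC1 in both libraries and not called (adjusted p = 0.121). Tbxas1, thromboxane synthase, was lower (4.4, 4.11 and 4.32 against -0.48 and -0.01; -4.52 ± 0.27), the 1 call among 16 lipid mediator genes. Slc11a1, or NRAMP1, a metal transporter of phagosomes, had 819, 717 and 738 reads in pre-cDC1 and 2 and 2 in pre-cDC2, a ratio of 503-fold (exact 95% interval 196 to 1848), and the metallothionein Mt1 was lower too (3.11, 3.0 and 2.97 against -0.16 and -1.14; -3.68 ± 0.4). Of 29 genes of survival and death, Bcl2a1d (5.56, 5.34 and 4.97 against 1.26 and 2.33), Bcl2a1a and Bid (5.35, 5.56 and 5.08 against 3.28 and 4.1) were lower. Bcl2a1a had 126, 228 and 209 reads against 0 and 3, a ratio of 166-fold (exact 95% interval 56.5 to 808), and reads of the Bcl2a1 copies are hard to assign.

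Few cell-cycle genes were called. Of 35 G2/M genes tested, 33 had a lower mean and 1 was called, the median was -1.16 (-1.28 in replicate 2 and -1.10 in replicate 3), and 21 lay below every pre-cDC1 library in both, against 20.2% of all genes. The spindle protein Tacc3 was the called gene (3.33, 3.08 and 3.21 against 1.93 and 2.03; -1.23 ± 0.22; adjusted p = 0.0513 with replicate 2 alone), and the proliferation marker Mki67 was at 2.21, 1.91 and 2.49 against 0.74 and 0.95 log2 RPKM with no overlap (adjusted p = 0.0842). Of 40 S phase genes, 3 were called lower (7.5%, against 3.37% of all genes) and none higher, with a median of -1.03 in replicate 2 and -0.29 in replicate 3. They were Rrm2, a subunit of ribonucleotide reductase (3.64, 3.47 and 3.45 against 1.65 and 1.7; -1.84 ± 0.21), the helicase factor Cdc45 (2.9, 3.09 and 3.03 against 0.96 and 0.85; -2.1 ± 0.25) and Hells (2.62, 2.6 and 2.76 against 0.12 and 1.02; -2.09 ± 0.37). Cdkn2d, the CDK4 inhibitor p19, was higher (4.08, 4.65 and 4.43 against 6.94 and 6.18; 2.17 ± 0.29), and the transcription factor E2f2 lower (2.68, 2.56 and 2.22 against -1.79 and -0.33; -3.55 ± 0.55).

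None of 79 ribosomal protein genes, 52 oxidative phosphorylation genes or 24 cholesterol synthesis genes was called, with medians of -0.02, -0.04 and 0.26. The median of the ribosomal list was -0.25 in replicate 2 and 0.22 in replicate 3, and that of the cholesterol list 0.74 and -0.20. Ribosomal protein genes were higher in replicate 3 than in replicate 2 in 75 of 79 cases, and cholesterol synthesis genes in 0 of 24. Of 24 glycolysis genes, the glucose transporters Slc2a3 (2.19, 2.17 and 2.5 against 4.89 and 4.4; 2.36 ± 0.25) and Slc2a1 (3.53, 3.35 and 3.34 against 4.38 and 4.8; 1.18 ± 0.21; adjusted p = 0.0562 with replicate 2 alone) were higher, and the hexokinase Hk3 (5.25, 5.12 and 5.26 against -0.13 and 1.44; -4.55 ± 0.46), Pgam1 (5.89, 6.11 and 6.05 against 5.04 and 5.18; -0.9 ± 0.15) and Tpi1 (5.8, 6.0 and 5.93 against 4.61 and 5.08; -1.07 ± 0.19) lower. Actin genes included 5 called lower of 41 and none higher, among them Actg1 (10.81, 10.85 and 10.71 against 9.67 and 9.66; -1.13 ± 0.2) and the actin-binding Tmsb4x (10.47, 10.48 and 10.44 against 9.48 and 9.35; -1.05 ± 0.19). Creld2 (6.52, 6.74 and 6.73 against 5.29 and 5.21; -1.41 ± 0.15) and Sdf2l1 (7.58, 7.76 and 7.66 against 6.24 and 5.58; -1.76 ± 0.23), both of the endoplasmic reticulum, were the calls among 27 genes of the unfolded protein response, and both were lower.

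Of 40 interferon response genes, Ifi203, Bst2, Rtp4 (0.34, -0.07 and -0.17 against 2.17 and 3.39) and Ifit3 (2.51, 1.25 and 2.33 against 4.1 and 4.71) were called higher and Phf11b (8.44, 8.46 and 8.41 against 7.4 and 6.9) and Mx1 (5.42, 5.57 and 5.6 against 4.67 and 4.26) lower, with a median of 0.26. Without the trend in eBayes 0 genes of this list were called in either direction. With replicate 2 alone, Ifi203 was at adjusted p = 0.0504 and Rtp4 at 0.0911. Ifit3 was called with neither pre-cDC2 library alone (adjusted p = 0.077 with replicate 3 and 0.157 with replicate 2). Of 37 immediate early genes, which also respond to handling of tissue, the feedback inhibitor Socs3 was higher (1.94, 2.77 and 2.22 against 4.8 and 5.52; 2.85 ± 0.35; adjusted p = 0.0541 with replicate 2 alone) and Hspa1b, Dusp1 (9.67, 9.66 and 9.68 against 8.5 and 8.13) and Btg2 lower, with a median of -0.03. The NF-kB regulators Nfkbiz (5.42, 5.61 and 5.67 against 6.62 and 6.7; 1.09 ± 0.15) and Nfkbid (5.88, 6.05 and 6.03 against 6.89 and 7.18; 1.05 ± 0.16) were higher, with the 2 pre-cDC2 libraries within 0.3 log2 of each other in both genes.

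The series was built around ADAM10, a membrane protease that sheds surface proteins. Adam10 itself was at -0.64, 0.13 and -2.29 log2 RPKM in the pre-cDC1 libraries and 1.76 and 4.53 in the pre-cDC2 libraries and was not called (adjusted p = 0.1), and replicate 3 carried most of the difference. Adam17, a related sheddase, was at 4.6, 4.26 and 4.18 against 4.3 and 4.23 log2 RPKM. Of 22 tested genes of ADAM family proteins and their partners, Frmd8, a partner of the iRhom proteins that guide ADAM17, was higher (4.66, 4.8 and 4.86 against 5.85 and 5.93; 1.12 ± 0.15). The tetraspanin Tspan33, a partner of ADAM10, was lower (3.26, 3.26 and 2.81 against -1.68 and -1.58; -4.74 ± 0.37), as were Adam8 (6.58, 6.46 and 6.68 against -0.03 and 2.4; -5.39 ± 0.68), Adam22 (2.51, 2.55 and 2.58 against -1.57 and -4.11) and Adam23 (2.41, 2.14 and 2.33 against -3.12 and -5.93), the last a member of the cDC list above. Of 26 Notch pathway genes tested, Notch4 was called lower (3.37, 2.75 and 1.95 against -1.2 and -2.38; -4.47 ± 0.63). With replicate 2 alone its adjusted p was 0.0596. Notch2, which splenic cDC2 use, was at 4.98, 4.95 and 5.04 against 4.62 and 3.61 log2 RPKM and was not called, nor was Rbpj, the DNA-binding partner of Notch (4.52, 4.48 and 4.77 against 3.75 and 2.79). The 1 call is 3.85% of the 26 Notch pathway genes, near the 3.37% of all genes.

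**Figure D5:**
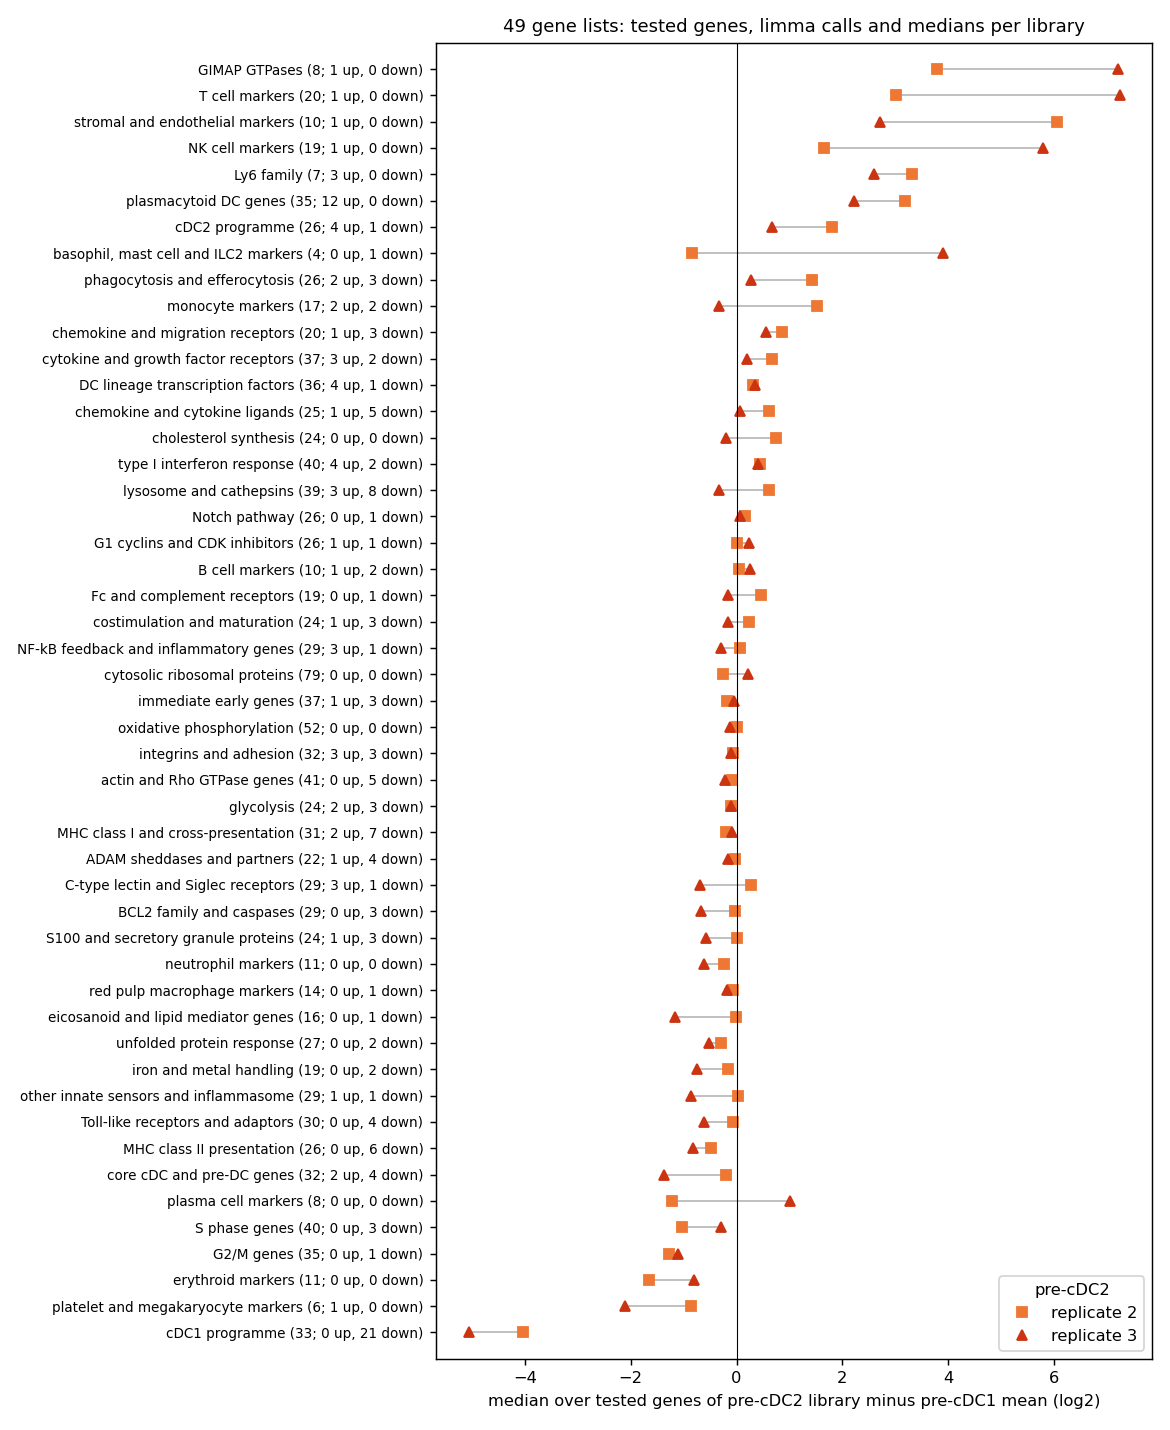
Median difference from the pre-cDC1 mean (x axis, log2) over the tested genes of each of 49 lists in pre-cDC2 replicate 2 (squares) and replicate 3 (triangles), with the number of tested genes and of limma calls beside each name. The cDC1 programme is lowest in both libraries, and the T cell, NK cell, GIMAP and endothelial lists and the basophil list of 4 tested genes lie furthest apart between the 2 libraries.

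T cell, NK cell and endothelial markers were high in 1 pre-cDC2 library more than in the other, and few passed the test. Over all genes, 20.2% lay above every pre-cDC1 library in both pre-cDC2 libraries, and 1.23% were called higher. Of 20 tested T cell genes, 19 lay above every pre-cDC1 library in both pre-cDC2 libraries and 1 was called, the transcription factor Tcf7, with 5, 2 and 8 reads in pre-cDC1 and 243 and 4478 in pre-cDC2. With replicate 2 alone its adjusted p was 0.0709. Cd3e, a chain of the T cell receptor complex, had 16, 19 and 23 reads in pre-cDC1, 140 in pre-cDC2 replicate 2 and 3283 in replicate 3, so no library lacked it. With replicate 3 alone 17 of the 20 were called higher, and with replicate 2 alone 1 was. All 8 GIMAP genes, small GTPases of lymphocytes, lay above pre-cDC1 in both libraries, and 1 was called, Gimap9 (-1.5, -2.73 and -1.2 against 2.92 and 6.32 log2 RPKM; adjusted p = 0.0699 with replicate 2 alone).

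Of 19 tested NK cell genes, 14 lay above every pre-cDC1 library in both, against 20.2% of all genes, and Klrd1 was called. Klrd1, or CD94, was at 5.32, 5.65 and 5.58 log2 RPKM in the pre-cDC1 libraries and 7.18 and 7.47 in the pre-cDC2 libraries (1.81 ± 0.18, adjusted p = 0.00922), nearly level in the 2 pre-cDC2 libraries, whereas Ncr1, which defines NK cells, was at 0.04, -0.58 and 2.36 against 1.69 and 6.06. Of 10 endothelial and stromal genes, Kdr, a receptor for VEGF, was called higher (-0.72, -2.15 and -0.68 against 5.24 and 2.92), and with replicate 3 alone it was not (adjusted p = 0.066). Of 10 tested B cell genes, Cd22 and Bank1 (1.23, 1.0 and 0.97 against -2.49 and -3.33) were called lower and Spib higher. Of 17 tested monocyte genes, 2 were called higher, Ly6c2 among them, and Lyz2 and Ear2 lower. Ear2 had 111, 182 and 140 reads against 2 and 0, a ratio of 192-fold (exact 95% interval 52.7 to 1587). Neutrophil and red cell markers gave no call, with Ly6g at 2 to 7 reads and Hba-a1 at 32, 43 and 60 reads in pre-cDC1 and 20 and 12 in pre-cDC2. C1qa, which defines macrophages, had 22, 40 and 42 reads in pre-cDC1 and 25 and 34 in pre-cDC2. In all, 7 of the 159 genes called higher and 6 of the 434 called lower are on a list of other cells (4.4% and 1.38%), against 127 of the 12886 tested genes (0.986%). That count leaves out the plasmacytoid DC list. It held 12 of the 159 genes called higher and 0 of the 434 called lower, against 35 of the 12886 tested.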

How the data were processed

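RNA from 5 wild-type libraries was analysed. The labels' protocols name PicoPure for the RNA, an input of 2 ng to which ERCC controls were added, SMARTSeq v2 amplification and paired-end Illumina sequencing. The authors used STAR 2.3, featureCounts 1.5.0 and edgeR in R 3.3.3, with GRCm38 (mm10), per the submitters' processing notes. The annotation release and the strand setting were not stated, so antisense and overlapping genes cannot be told apart. The deposited values are the log2 RPKM of the authors, and the values themselves show that a small prior count was added to the reads. Solved for whole reads with gene lengths of GENCODE mouse release 21, all 245175 values of the 49035 genes with a length were whole within 0.001 reads. For the other 3515 genes a length was solved for. The reads carry no molecular identifiers, so intervals and floors cover counting error only. Coordinates come from that release, matched by identifier.

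limma 3.58.1 in R 4.3.3 fitted the 2 group means to the deposited log2 values of genes above 0 log2 RPKM in at least 2 of 5 libraries, with no further pseudocount and eBayes with a trend (3 residual and 2.64 prior degrees of freedom). Tests were two-sided and adjusted by Benjamini and Hochberg. The procedure was tested on simulated reads with the same spread in all 5 libraries and changes planted only in genes with many reads. That test does not cover the wider spread of the pre-cDC2 pair or genes with few reads. Genes that pass the filter through pre-cDC2 alone (431) or pre-cDC1 alone (692) had to differ.

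The libraries and 49 lists (1313 genes, 1307 in the table) were chosen with earlier results of these data known. Named genes are the 12 widest gaps in each direction among called genes whose mean reached 1 log2 RPKM, without predicted genes or receptor segments, up to 6 members of each list with the smallest p, and a fixed set of 33 genes. Other list members were named after their values were seen, and some members of the lists are not reported here. Alternatives were 2 filters, 1 RPKM added, 2 other normalizations, eBayes without trend or robust, library weights, a replicate block, voom on recovered reads and leaving out each library.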

Additional observations from a re-analysis of the deposited data

How the results depend on the processing

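The 159 higher and 434 lower calls became 247 higher with 1 RPKM added, 87 higher with library weights and 248 higher with voom on recovered reads, while the lower count stayed within 1.5 times under these settings. Leaving out 1 library gave 2 to 559 higher and 29 to 1256 lower, the fewest without a pre-cDC1 library and the most without a pre-cDC2 library. With the replicate block, which leaves pre-cDC1 replicate 1 without a partner and so out of the comparison, 1 gene was called higher and 17 lower. The replicate numbers are not shown to pair the libraries: deviations of same-numbered libraries from their group means correlated at -0.0235 and -0.00926 over 2 pairs, and the labels name no shared animal. With no filter, the stricter filter, quantile normalization, centred medians, no trend or robust eBayes, both counts stayed within 1.5 times, but the genes changed without the trend: of its 111 higher and 300 lower calls, 56 and 251 were among the 159 and 434, and 65 of 181 named genes lost their call. Without pre-cDC1 replicate 1, 2 or 3, 117, 116 or 118 of these 181 genes lost their call. With the replicate block 124 of them did. Among named genes the sign of the difference turned only in genes that were not called. Leaving out 1 library moved it over -1.65 to 1.35 for Cd8a, -3.70 to 0.24 for Cxcr3, -0.54 to 0.90 for Ctss, -1.37 to 0.43 for Csf2rb, -0.065 to 1.53 for Klf4, -1.50 to 0.18 for Spi1, -0.78 to 0.14 for Xist and -0.17 to 0.047 for Adam17, with the ends set by the pre-cDC2 libraries except for Adam17. Adam17 was at 0.047 under the replicate block too. The cause of these changes was not tested. A pre-cDC2 group of 2 libraries limits what can be called, and genes near 0 reads in a group carry the counting intervals given with them.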
